A study of Homo sapiens with 24 samples.

Results

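The response of OVCAR-3 cells to carboplatin alone was examined in polysome RNA, the mRNA carried by heavily translating ribosomes, on 7 of the 24 arrays of the series. OVCAR-3 is an established line of high-grade serous ovarian cancer that resists platinum. The treated cells received 1 µM carboplatin for 5 hours and the controls received the solvent DMSO. Members were chosen by their labels: 4 carboplatin polysome arrays against 3 DMSO polysome arrays. Of the carboplatin arrays, replicates 2 and 3 have plain titles and are called uncoded below, and the other 2, another replicate 2 and another replicate 3, carry a number code in the title and are called coded. The meaning of the codes is not given in the sources used here. Another array, titled carboplatin polysome replicate 1, was left out because all 676 of its probesets that could be compared equalled a total RNA column of combined carboplatin and INK128 treatment in the study's own dataset. For comparison, 3 polysome arrays of cells given 0.25 µM INK128, an inhibitor of both mTOR complexes, and 3 of cells given INK128 for 19 hours before carboplatin was added were also used, as were the total RNA arrays.

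Carboplatin binds purine bases and joins neighbouring bases or opposite strands of DNA, which blocks replication and sets off checkpoint signalling through ATR and ATM. In many cell types DNA damage also reaches NF-kB, the transcription factor family that drives cytokine and survival genes. An mRNA can gain or lose signal in the polysome fraction because its abundance changed or because its share on ribosomes changed, and the polysome arrays alone do not separate these.

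The values are log2 signals, so that a difference of 1 is a 2-fold difference, and 7442 genes above a mean log2 signal of 6.54 were tested. Markers of serous ovarian epithelium averaged 8.86 to 8.98 over the 4 carboplatin arrays and 8.83 to 9.04 over the DMSO arrays, with 14 of 15 measured markers above the filter. None of 6 measured stromal and endothelial markers and 2 of 8 leukocyte markers were above it. Of the epithelial markers SOX17 fell in the uncoded arrays described below, by −0.72 ± 0.14 (adjusted p = 0.0113), and no other was called. Of all tested genes 1.12% fell there. DMSO replicate 1 stood apart from its group: the median absolute difference between arrays was 0.379 from DMSO replicate 2 and 0.268 from DMSO replicate 3, against 0.141 between replicates 2 and 3. A score set the 50 genes highest in polysome over total RNA against the 50 lowest. They were picked in the DMSO and INK128 arrays, so the scores of those arrays are not independent of the choice. Total RNA arrays scored from −1.09 to 0.28. The score was 0.66 in DMSO replicate 1 and 2.29 and 1.92 in the other DMSO polysome arrays. It was 1.52 and 1.78 in the uncoded and 1.26 and 1.97 in the coded carboplatin polysome arrays. The part of this difference in the results was not tested. The labels do not say that replicates are separate cultures, so p-values measure the spread between arrays. In the polysome fits that spread was pooled over 13 arrays, with the INK128 and combination arrays included. The median standard deviation was 0.211 in DMSO, 0.173 in the 4 carboplatin, 0.086 in the INK128 and 0.213 in the combination arrays.

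With all 4 carboplatin arrays against the 3 DMSO arrays, no gene passed an adjusted p of 0.05 in limma. At an unadjusted p under 0.05 there were 175 genes, or 2.35% of those tested, with 130 higher (1.75%) and 45 lower (0.605%). That count was 29 without uncoded replicate 2, 33 without uncoded replicate 3, 493 without coded replicate 2, 474 without coded replicate 3, 556 without DMSO replicate 1 and 73 without DMSO replicate 3, and no gene was called in any of these. With an added log2 change of at least 0.6, the size used by the study's methods for polysome RNA, 27 genes remained, or 0.363%, with 24 higher and 3 lower. A fit of only the carboplatin and DMSO arrays gave 78 genes at an unadjusted p under 0.05, 9 of them with this size, and no called gene. The 4 carboplatin arrays lay above all 3 DMSO arrays in 89 genes, 1.2% of those tested, and below them in 67 genes, 0.9%.

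The 4 carboplatin arrays did not form 1 group. The uncoded arrays differed from each other by a median of 0.122 and in no gene by more than 1, and the coded arrays by a median of 0.132, whereas an uncoded and a coded array differed by 0.214 to 0.255, in 94 to 141 genes by more than 1. Coded replicate 3 was closer to DMSO replicate 3, at 0.0982, than to any other of the 7 arrays, and coded replicate 2 differed from coded replicate 3 by 0.132, from DMSO replicate 1 by 0.148 and from DMSO replicate 3 by 0.154. Tested directly, uncoded against coded arrays gave 213 genes at an adjusted p under 0.05, 157 higher and 56 lower in the uncoded arrays, or 2.86% of the genes tested. Leaving out 1 of the 4 arrays left 33 to 48 of such calls.

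The plan set all carboplatin arrays against DMSO, and uncoded against coded arrays. The separate comparisons of the uncoded and of the coded arrays with DMSO were added to it. Set against the same 3 DMSO arrays, the uncoded arrays gave 319 called genes, 236 higher and 83 lower, which is 4.29% of those tested. The coded arrays gave 0 called genes and 9 genes at an unadjusted p under 0.05, or 0.121%. Of the 319 genes, 68 changed by a log2 of at least 1 in the uncoded arrays, 49 higher and 19 lower. Over the 319 genes the changes in the coded arrays ran from −0.25 to 0.38. Without uncoded replicate 2 the count of uncoded calls was 56, without replicate 3 it was 55, without DMSO replicate 2 it was 591 and without DMSO replicate 3 it was 124. In a fit of only the carboplatin and DMSO arrays it was 161. The coded arrays gave 641 genes at an unadjusted p under 0.05, and still no called gene, once DMSO replicate 1 was left out.

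**Figure D1:**
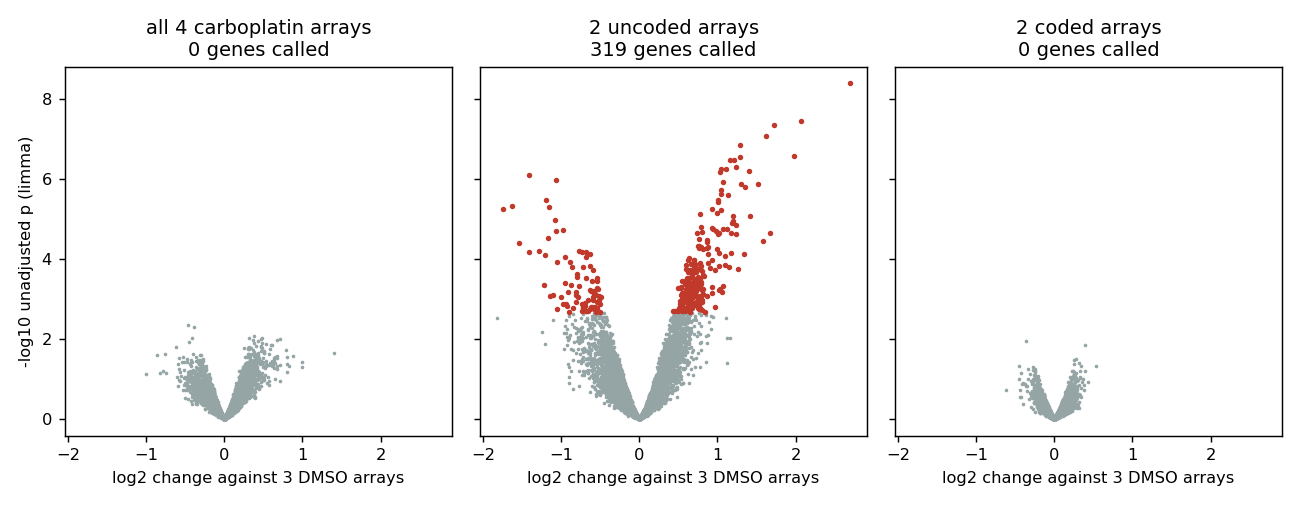
Each point is 1 of 7442 genes: the x axis gives the log2 change against the 3 DMSO polysome arrays and the y axis −log10 of the unadjusted limma p, for all 4 carboplatin arrays, the 2 uncoded arrays and the 2 coded arrays. Red points passed an adjusted p of 0.05: 0 genes with all 4 arrays, 319 with the uncoded arrays and 0 with the coded arrays.

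The gene with the largest rise in the uncoded arrays was DKK1, a secreted inhibitor of Wnt signalling. Its log2 signal was 10.10 and 9.75 in the uncoded arrays, 7.50 and 7.21 in the coded arrays and 7.31, 7.23 and 7.17 in DMSO, so that both uncoded arrays stood far above the other 5 arrays, among which coded and DMSO values overlapped. The rise was 2.69 ± 0.19 (SE), or 6.47-fold, at an adjusted p of 3.07e-05, and uncoded against coded arrays differed by 2.57 ± 0.21 (adjusted p = 0.000158). With all 4 carboplatin arrays the difference was 1.41 ± 0.55 at an unadjusted p of 0.022. DKK1 and the other genes of the uncoded comparison were chosen for their size in it, after their values were seen.

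TNS4, an adaptor of focal adhesions, read 9.21 and 9.27 in the uncoded arrays, 6.98 and 7.18 in the coded arrays and 6.99, 7.32 and 7.20 in DMSO, a rise of 2.07 ± 0.18 (adjusted p = 0.00011). KMO, an enzyme of the kynurenine pathway of tryptophan breakdown, rose by 1.98 ± 0.20 (adjusted p = 0.000285). SGPP2, a phosphatase of sphingosine 1-phosphate, rose by 1.41 ± 0.20. In all 3 genes the coded arrays lay within or next to the range of DMSO. Rises of more than 1 log2 unit were also called for DAPP1, an adaptor downstream of phosphoinositide 3-kinase, at 1.62, for the receptor of interleukin 7 (IL7R) at 1.52, for the epidermal protein FLG at 1.35 and for EDN1, the precursor of endothelin, at 1.34. The call for EDN1 was lost without uncoded replicate 2 (adjusted p = 0.0996) and without replicate 3 (0.07). The growth factor PDGFB rose by 1.29 ± 0.13 and read 9.22 and 9.30 in the uncoded arrays, 8.03 and 8.01 in the coded arrays and 8.07, 7.93 and 7.92 in DMSO.

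HHEX, a homeobox repressor, rose by 1.20 ± 0.17 (adjusted p = 0.00182) and read 7.78 and 7.49 in the uncoded arrays, 6.70 and 6.62 in the coded arrays and 6.79, 6.22 and 6.29 in DMSO. Its coded values lay within the range of DMSO.

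**Figure D2:**
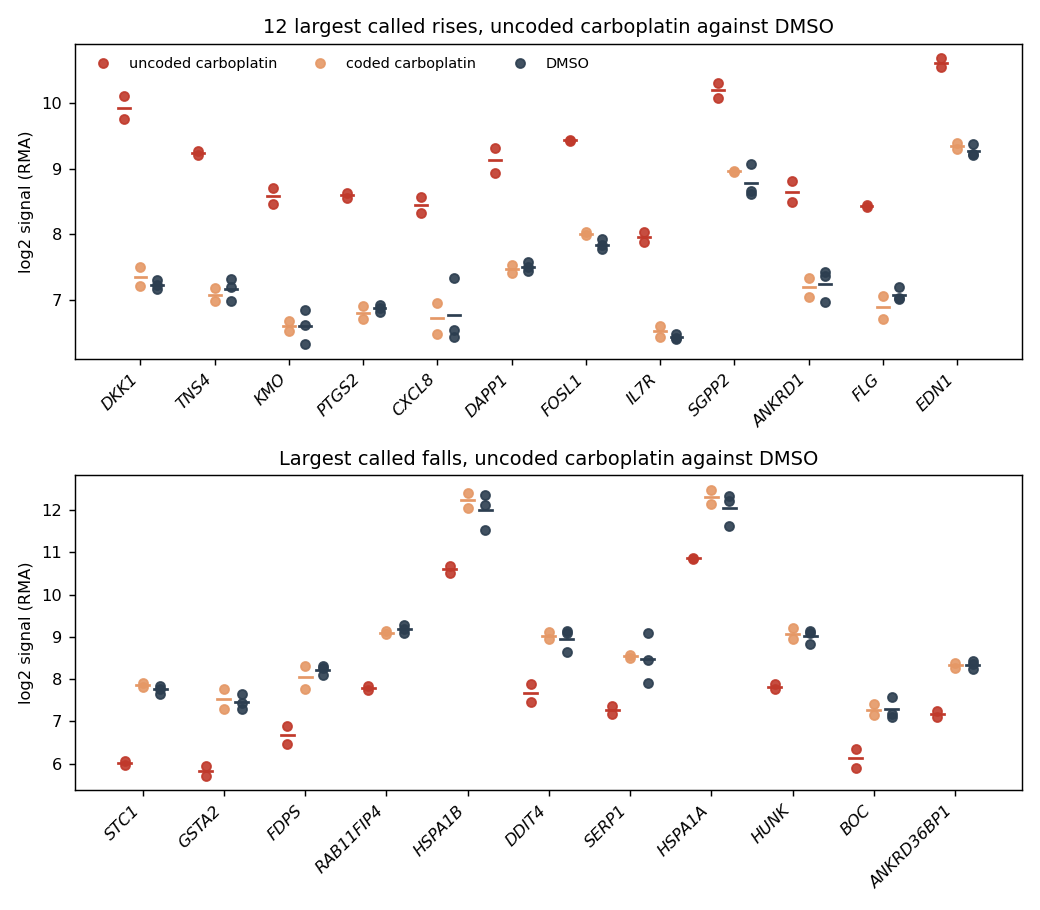
Log2 signal (y axis) of the 12 genes with the largest called rise (upper panel) and of those with the largest called falls (lower panel) in the uncoded carboplatin arrays. Each point is 1 array and each bar a group mean. In each gene shown the 2 uncoded arrays lie outside the range of the 5 coded and DMSO arrays, and the genes were chosen for this change.

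Targets of NF-kB were the list with the largest median in the uncoded arrays. Of 13 tested members, 8 rose and none fell at an adjusted p under 0.05, beside 3.17% of all genes tested that rose, and the median change was 0.87, beside 0.01 over all genes. The median was 0.06 in the coded arrays, where none was called, and 0.43 with all 4 arrays, where 5 members were higher at an unadjusted p under 0.05, as 1.75% of all genes were. Without uncoded replicate 2 the number that rose was 4, and without replicate 3 it was 3, with medians of 0.86 and 0.87, and without DMSO replicate 3 it was 5. In a fit of only the carboplatin and DMSO arrays, 5 members rose and 1 fell in the uncoded arrays. The 5 members at an unadjusted p under 0.05 in the 4-array comparison became 0 in that fit, and 0 without either uncoded array. The list was proposed with the size of these changes known, so the counts are a description.

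The members that rose include both signals and the transcription factors themselves. PTGS2, the inducible cyclooxygenase that makes prostaglandins, read 8.63 and 8.55 in the uncoded arrays, 6.71 and 6.91 in the coded arrays and 6.81, 6.93 and 6.87 in DMSO. It rose by 1.72 ± 0.15 (adjusted p = 0.00011), and its uncoded values stood clear of the other 5. CXCL8, the neutrophil chemokine interleukin 8, read 8.56 and 8.32 against 6.96 and 6.48 in the coded arrays and 7.34, 6.44 and 6.54 in DMSO, with the high DMSO value in replicate 1. Its rise was 1.67 ± 0.26 (adjusted p = 0.00327), and the call was lost without uncoded replicate 2 (adjusted p = 0.0749). The cytokine LIF rose by 1.07 ± 0.13, and IRAK2, a kinase of the interleukin 1 receptor pathway, by 1.24 ± 0.19. Of the NF-kB subunits, NFKB2 rose by 1.18 ± 0.18, NFKB1 by 0.87 ± 0.20 and RELB by 0.58 ± 0.12, and TNIP1, an inhibitor of NF-kB signalling, by 0.75 ± 0.18. The adhesion molecule ICAM1 was higher by 1.16 ± 0.38 but missed the threshold (adjusted p = 0.106). CCL2, another chemokine, was lower, by −1.24 ± 0.39 (adjusted p = 0.0907), and CXCL2 differed by −0.22 ± 0.24, so 2 of the 13 members differed in the opposite direction.

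CXCL8, NFKB1, NFKB2 and TNIP1 hold a classical NF-kB motif just before a start site, and these stretches are shown because they carry the letters that the factor family is known to bind. They are from RefSeq start sites on GRCh38.p14, 5′ to 3′ on the strand of the gene, with the match to GGANTTTCC in capitals.
CXCL8, chr4:73740452-73740512: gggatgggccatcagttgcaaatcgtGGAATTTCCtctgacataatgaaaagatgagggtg
NFKB1, chr4:102501285-102501345: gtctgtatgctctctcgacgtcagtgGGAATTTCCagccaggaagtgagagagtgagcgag
NFKB2, chr10:102395659-102395719: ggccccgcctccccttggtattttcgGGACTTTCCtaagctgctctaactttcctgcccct
TNIP1, chr5:151081041-151081101: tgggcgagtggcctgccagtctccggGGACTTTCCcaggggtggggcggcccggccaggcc
The matches begin 91, 48, 20 and 41 bases before the start site, in that order. NFKB1, NFKB2 and TNIP1 have several windows in the table and the first with a match is shown. The motif was searched on both strands (GGANTTTCC and GGAAANTCC) in windows from 250 bases before to 50 after each start site, after the values were seen. It was present in 577 of 35116 windows, or 1.64%, and in 6 of the 9 tested NF-kB targets with a window. Those 6 include ICAM1 and CXCL2, which did not pass the test, and the windows of PTGS2 and IRAK2 held no match. A match describes letters and not binding. The 194 called rises with a window held it in 8, or 4.12%, the 69 called falls in 4, or 5.8%, and the 6025 tested genes with a window in 143, or 2.37%.

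Genes of growth factor signalling moved in the same arrays. In the list of MAP kinase and growth factor feedback, 4 of 17 tested members rose in the uncoded arrays and none fell, beside 3.17% of all genes that rose, with a median of 0.38 (coded arrays −0.04). Without either uncoded array 1 member rose, and without DMSO replicate 3 the number was 2. IRS1, which links insulin and IGF receptors to phosphoinositide 3-kinase, read 8.43 and 8.50 in the uncoded arrays, 7.31 and 7.16 in the coded arrays and 7.28, 7.49 and 7.29 in DMSO, a rise of 1.11 ± 0.12 (adjusted p = 0.000358). Its homologue IRS2 rose by 1.02 ± 0.23, the epidermal growth factor receptor EGFR by 0.74 ± 0.18, and DUSP4, a phosphatase that switches off MAP kinases, by 0.70 ± 0.13. SPRY4, an inhibitor of receptor tyrosine kinase signalling, was higher by 0.59 ± 0.16 and did not pass (adjusted p = 0.0591).

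Immediate early genes, which answer growth factors and stress within minutes to hours, gave 4 called rises and no fall among 29 tested members, beside 3.17% of all genes that rose, with a median of 0.25 (coded arrays −0.08). Without either uncoded array no member was called, and the number was 8 without DMSO replicate 1 and 2 without DMSO replicate 3. FOSL1, a FOS family subunit of the AP-1 transcription factor, read 9.42 and 9.44 in the uncoded arrays, 8.03 and 7.99 in the coded arrays and 7.92, 7.77 and 7.83 in DMSO. It rose by 1.59 ± 0.26 in the uncoded arrays (adjusted p = 0.00457), a call lost without uncoded replicate 2 (adjusted p = 0.0693) and without replicate 3 (0.0652), and it was the member of this list whose 4 carboplatin arrays all lay above DMSO. FOSL2 rose by 0.64 ± 0.14 and MYC by 0.65 ± 0.14. The classical members FOS, EGR1 and ATF3 differed by −0.48 ± 0.32, 0.64 ± 0.39 and −0.26 ± 0.18. Each had its highest DMSO value in DMSO replicate 1, which for FOS was 8.99 against 7.76 and 7.72 in the other DMSO arrays.

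Among the called falls, STC1, a secreted glycoprotein of calcium and phosphate balance, was the largest. It read 5.96 and 6.05 in the uncoded arrays, 7.80 and 7.92 in the coded arrays and 7.77, 7.84 and 7.65 in DMSO, a fall of −1.75 ± 0.24 (adjusted p = 0.00139), with the uncoded values under the signal minimum used for the mean. RAB11FIP4, an effector of the recycling GTPase RAB11, fell by −1.41 ± 0.16 (adjusted p = 0.000394). DDIT4, a stress-induced inhibitor of mTORC1, read 7.46 and 7.88 in the uncoded arrays, 9.10 and 8.96 in the coded arrays and 9.13, 8.64 and 9.09 in DMSO, and fell by −1.28 ± 0.22 (adjusted p = 0.00689), a call lost without uncoded replicate 2 (adjusted p = 0.119). The uncoded values of all 3 lay below those of the other 5 arrays. DDIT4 is one of 2 called falls, with XBP1 at −0.87, among 17 tested ATF4 targets and genes of the unfolded protein response, in which ATF5 rose by 0.59, beside 1.12% of all genes that fell and 3.17% that rose. The 2 falls became 0 without uncoded replicate 2, 1 without replicate 3 and 1 without DMSO replicate 3.

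Heat shock genes showed 3 called falls and no rise among 12 tested, beside 1.12% of all genes that fell. HSPA1B, a stress-inducible HSP70, read 10.51 and 10.68 in the uncoded arrays, 12.05 and 12.41 in the coded arrays and 11.52, 12.12 and 12.35 in DMSO and fell by −1.40 ± 0.24 (adjusted p = 0.00699). HSPA1A fell by −1.20 and HSPA1L by −0.80. The 3 genes are close copies of each other and their probesets may share signal, so they cannot be counted as 3 independent falls. All 3 calls were lost when either uncoded array was left out, and 2 of 3 were left without DMSO replicate 3. The other chaperones, such as HSPD1 at 0.18 ± 0.26 and HSPH1 at −0.21 ± 0.24, did not pass.

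Glutathione transferases couple glutathione to electrophiles and to platinum compounds, and some of them were called lower in the uncoded arrays. In the list of platinum uptake, export and thiol detoxification, 3 of 13 tested members fell and none rose, beside 1.12% of all genes tested that fell, with a median of −0.24 (coded arrays 0.03). The number that fell was 1 without either uncoded array and 1 without DMSO replicate 3. GSTM3 read 6.51 and 6.60 in the uncoded arrays, 7.28 and 7.65 in the coded arrays and 7.44, 7.71 and 7.73 in DMSO, a fall of −1.07 ± 0.15 (adjusted p = 0.00225). GSTA4 fell by −0.80 ± 0.16 and MGST2 by −0.61 ± 0.15. GSTA2, an alpha-class enzyme outside the list that was named for the size of its fall, fell by −1.63 ± 0.22. The main pi-class enzyme GSTP1 differed by −0.22 ± 0.12 and did not pass, and neither did the list members GSTK1, GSTO1 and MGST1. The copper transporters SLC31A1, ATP7A and ATP7B, which also carry platinum, have no named probeset in the platform table and were not analysed here.

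Of 15 tested genes of cholesterol synthesis and uptake, 2 fell and none rose in the uncoded arrays, beside 1.12% of all genes that fell. Without uncoded replicate 2 none was called, and without replicate 3 it was 1. FDPS, which makes farnesyl diphosphate, read 6.47 and 6.89 in the uncoded arrays, 7.76 and 8.32 in the coded arrays and 8.10, 8.27 and 8.30 in DMSO, a fall of −1.54 ± 0.25 (adjusted p = 0.00486) that was not called without uncoded replicate 2 (adjusted p = 0.0971). INSIG1, which holds the sterol sensor in the endoplasmic reticulum, fell by −0.80 ± 0.19, and HMGCS1, which makes HMG-CoA, differed by −0.29 ± 0.17.

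Genes of the response to platinum damage were examined by list. PMAIP1, the pro-apoptotic NOXA, read 7.43 and 7.20 in the uncoded arrays, 8.41 and 7.81 in the coded arrays and 8.73, 7.26 and 7.53 in DMSO, so that its 2 highest values came from DMSO replicate 1 and coded replicate 2. CDKN1A, MDM2 and GADD45A, and the repair genes BRCA1, BRCA2, FANCD2 and ERCC1, likewise have no named probeset. Of 18 damage sensors and checkpoint kinases 1 rose in the uncoded arrays and none fell, beside 3.17% of all genes that rose. It was TIPIN, which steadies stalled replication forks, at 0.76 ± 0.18, with 9.08 and 8.28 in the uncoded arrays against 7.79 to 8.06 in DMSO. The kinase CHEK1 differed by 0.21 ± 0.16, its relative CHEK2 by −0.37 ± 0.12 and the clamp loader RAD17 by 0.00 ± 0.30, none of them called.

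No gene was called among 13 genes of homologous recombination (median 0.24 in the uncoded arrays and 0.00 in the coded arrays) or 10 of Fanconi crosslink repair (median −0.11 and 0.00). Nearest to the threshold among the former was PALB2, the partner of BRCA2, at 0.43 ± 0.12 (adjusted p = 0.0549), and RAD51C differed by −0.11 ± 0.24. In mismatch and base excision repair, 2 of 18 genes rose, beside 3.17% of all genes: FEN1, the flap endonuclease, by 0.78 ± 0.20 and MLH3 by 0.55 ± 0.12. BIRC5, the inhibitor of apoptosis survivin, differed by −0.71 ± 0.23 (adjusted p = 0.0952) and was not called in the BCL2 family and inhibitors of apoptosis, where 0 of 18 genes passed.

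The translation machinery was measured in the same arrays. Of 38 tested cytosolic ribosomal proteins, 1 fell in the uncoded arrays, beside 1.12% of all genes: RPS18, by −0.74 ± 0.13 (adjusted p = 0.00699). The largest decrease in this list, −1.81, was not called. At an unadjusted p under 0.05 in limma 8 members were lower, beside 587 of 7442 genes tested. A change below 0 was seen for 34 of the 38 in the uncoded arrays (median −0.22) and for 16 in the coded arrays (median 0.02). Of all tested genes, 51% had a change above 0 in the uncoded arrays and 53.8% in the coded arrays. RPS18 read at most 9.01 in the uncoded arrays, 9.48 and 9.66 in the coded arrays and 9.71, 9.67 and 9.84 in DMSO, so that the coded values lay between those of the other groups. Probesets of ribosomal protein genes can also catch processed copies elsewhere in the genome. All 12 tested genes of the respiratory chain were below 0 in the uncoded arrays (median −0.33), but none was called. Of 10 tested translation factors 1 fell, beside 1.12% of all genes: EIF5, which triggers GTP hydrolysis at the start codon, by −0.97 ± 0.15 (adjusted p = 0.00312). In this list 5 members were above 0 and 5 below in the uncoded arrays, with a median of −0.02. EEF2K, the kinase that slows elongation, is outside the list and fell by −1.06 ± 0.12 (adjusted p = 0.000503).

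Of the remaining lists, zinc finger genes of the ZNF family gave 11 rises and 1 fall among 239 tested in the uncoded arrays (median 0.07), beside 3.17% of all genes that rose and 1.12% that fell. The largest rise was ZNF185, an actin-binding LIM protein, at 1.05 ± 0.12 (adjusted p = 0.000358). Of 68 mitochondrial ribosomal proteins 2 fell, MRPL41 and MRPL13, by −0.52 each, beside 1.12% of all genes that fell. The median was −0.16 (coded arrays 0.04). MAD2L1, a spindle checkpoint protein, fell by −0.57 ± 0.13 and was the 1 call among 32 genes of G2/M and mitosis, beside the same 1.12%. Of 16 genes of hypoxia and glycolysis 2 fell, beside the same 1.12%: CA12, a membrane carbonic anhydrase, by −0.68 ± 0.18, and DDIT4. No gene was called among 27 of G1/S and DNA replication (median 0.04), 15 interferon-stimulated genes (0.06), 8 NRF2 targets (−0.25) or 13 of fatty acid synthesis (−0.17). The same held for 4 of end joining (0.20) and for 7 of the small nucleolar RNA list (0.01), all of them small Cajal body RNAs. In all, 16 of 26 lists held a called gene in the uncoded arrays and 0 of 26 in the coded arrays, and 270 of the 319 called genes were in no list.

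**Figure D3:**
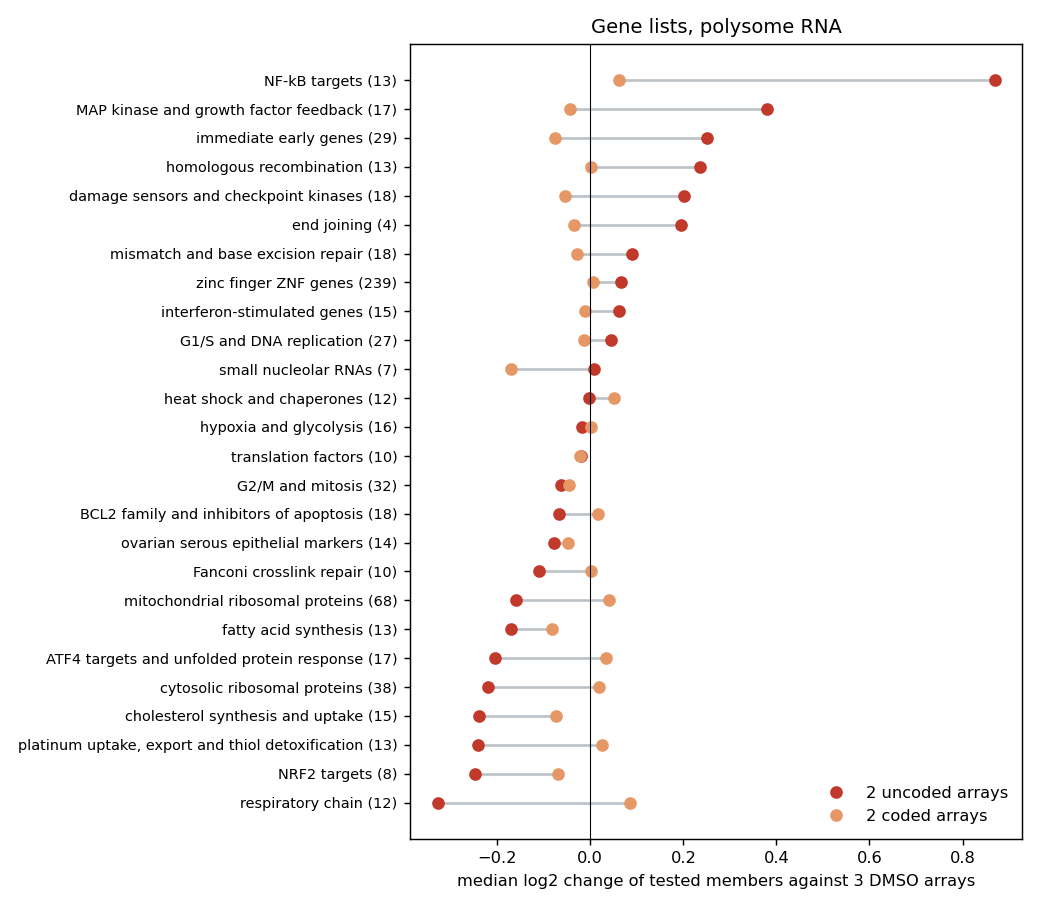
Median log2 change against DMSO (x axis) of the tested members of each of 26 gene lists, with the number of tested members in brackets, for the 2 uncoded and the 2 coded carboplatin polysome arrays. NF-kB targets have the highest uncoded median, 0.87, and the coded medians of the lists run from −0.17 to 0.09.

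Total RNA, which the paper took from the lysates used for polysomes, was measured on other arrays. By the study's column names, DMSO total replicate 2 goes with DMSO polysome replicate 3. The coded total RNA array goes with coded polysome replicate 3. No total RNA array was matched to DMSO polysome replicate 2 or coded polysome replicate 2, so the lysates of the fractions differed in part. In total RNA the uncoded arrays are carboplatin total replicates 2 and 3, set against 2 DMSO arrays, and 1 carboplatin array carries a code. Fits with the coded arm assume that its 1 array varies like those of the other groups. The uncoded total RNA arrays gave 11 called genes, 3 higher and 8 lower (0.148% of those tested), and 639 at an unadjusted p under 0.05, or 8.59%. The coded array gave 0 called genes and 14 at an unadjusted p under 0.05, or 0.188%. Uncoded against coded total RNA, tested directly, gave 1 called gene (0.0134%) and 451 at an unadjusted p under 0.05 (6.06%). The called gene was CXCL8, with 9.58 and 9.60 in the uncoded arrays, 7.40 in the coded array and 7.71 and 7.49 in DMSO, a difference between uncoded and coded of 2.19 ± 0.22 (adjusted p = 0.0351). The 11 genes were CXCL8, DKK1, IL7R, STC1, FDPS, HSPA1B, HSPA1A, HUNK, GSTA2, SERP1 and TMTC1, and each was called in the same direction in polysome RNA.

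Of the 319 genes called in polysome RNA, 309 had the same sign in the uncoded total RNA arrays, 226 of 236 rises and 83 of 83 falls, against 36.4% of all tested genes above 0 there. In the coded total RNA array 155 of the 319 had the same sign. DKK1 read 9.71 and 9.74 in uncoded total RNA, with the coded array between the DMSO values of 7.63 and 7.12, a rise of 2.35 ± 0.26 (adjusted p = 0.0226). Across the 7442 genes, which are not independent replicates, the uncoded changes in the fractions had a Pearson r of 0.68 (Spearman 0.60), and the coded changes 0.12 (0.13).

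**Figure D4:**
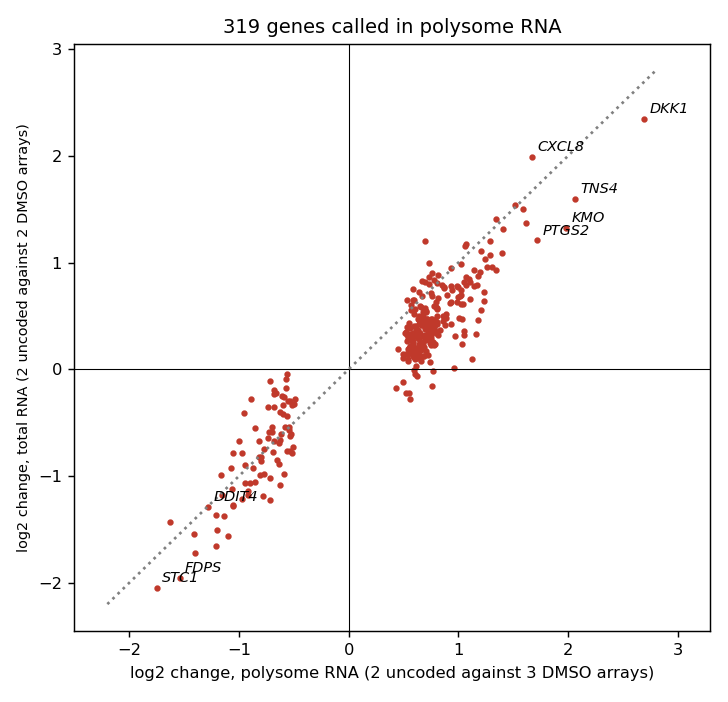
Log2 change in polysome RNA (x axis, 2 uncoded against 3 DMSO arrays) and in total RNA (y axis, 2 uncoded against 2 DMSO arrays) of the 319 genes called in polysome RNA, with some named. The dotted line marks equal change, and 309 points have the same sign on both axes.

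Polysome and total RNA changes were compared in a fit that took the arrays as independent and did not pair those of the same lysate. The paper instead used the difference between matched polysomal and total RNA, which was not tested here. No gene had a polysome change that differed from its total RNA change at an adjusted p under 0.05. With all carboplatin arrays 59 genes did so at an unadjusted p under 0.05, or 0.793%, and with the uncoded arrays 230 did, or 3.09%, 186 higher in polysome RNA and 44 lower. With 1 array left out these counts ran from 30 to 188 and from 139 to 488. For the 236 called rises the polysome change exceeded the total RNA change by a median of 0.33, and for the 83 called falls by 0.01, beside 0.10 over all genes tested. These genes were chosen for their change in the same polysome arrays. That choice can by itself shift the difference, so no conclusion on translation is drawn from these medians. GMEB1, a DNA-binding modulator of the glucocorticoid response, rose by 1.05 in polysome RNA and was 0.32 ± 0.20 higher in total RNA, with a difference of 0.73 that did not pass.

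In cells already given INK128, carboplatin was compared on arrays that the comparison above does not use, 3 combination against 3 INK128 polysome arrays. No gene was called, and 207 genes had an unadjusted p under 0.05, or 2.78%, 39 higher and 168 lower. That count moved with every array, from 28 without combination replicate 3 to 1000 without combination replicate 1. DKK1 read 8.06, 8.38 and 7.78 in the combination arrays and between 7.92 and 8.39 in the INK128 arrays, and STC1 read 6.20, 7.03 and 6.71 against 6.19, 6.88 and 6.89, so that the groups overlapped in both. With uncoded and coded arrays taken as 1 group, the carboplatin effect without INK128 minus that with INK128 was called in no gene. It had an unadjusted p under 0.05 in 1.37% of genes. This difference was not tested for the uncoded arrays alone. Of the 319 genes, 166 had the same sign in the combination comparison as in the uncoded arrays.

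Some genes separated all 4 carboplatin arrays from DMSO by a margin small for the coded arrays. Genes were ranked by log2 change among those whose groups did not overlap and whose unadjusted p in limma was under 0.05. Of 7442 genes tested, 36 met the rule for rises and 16 for falls, and the 12 largest of each are described. Without the p rule, the groups did not overlap in 1.2% of genes tested for rises and 0.9% for falls. The unadjusted p-values given below were part of this choice. None passed an adjusted p of 0.05 with 4 arrays.

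FOSL1 led the rises at 0.88 ± 0.36. GMEB1 read 9.36 and 9.36 in the uncoded arrays, 8.47 and 8.44 in the coded arrays and 8.38, 8.23 and 8.30 in DMSO, a difference of 0.60 ± 0.22, and TCF20, a nuclear coregulator, was 0.59 ± 0.22 higher. In both, the coded arrays were nearer to DMSO than to the uncoded arrays. NOCT, a phosphatase with circadian expression, was 0.48 ± 0.16 higher (unadjusted p = 0.00954), with 9.95 and 9.98 in the uncoded arrays, 9.30 and 9.50 in the coded arrays and 9.06, 9.28 and 9.27 in DMSO. The receptor tyrosine kinase AXL was 0.45 ± 0.19 higher, with 7.05 and 7.01 in the coded arrays just above the highest DMSO value of 6.91. ANGPTL4, a secreted inhibitor of lipoprotein lipase, was 0.43 ± 0.15 higher and read 7.19 and 7.09 in the uncoded arrays, 6.79 and 6.88 in the coded arrays and 6.28, 6.72 and 6.67 in DMSO, with the coded values between the other groups. The others were the microRNA gene MIR4653 (0.67), ANKLE2 (0.51), VGLL2 (0.50), PROSER2 (0.44), GLRX2, a mitochondrial glutaredoxin (0.43), and KDSR, an enzyme of sphingolipid synthesis (0.40).

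Among the falls, RESF1, a factor of retroelement silencing, was lower by −0.46 ± 0.14 (unadjusted p = 0.00453), with 6.91 and 6.97 in the uncoded arrays, 7.37 and 7.38 in the coded arrays and 7.78, 7.47 and 7.60 in DMSO. RPS18 was lower by −0.46 ± 0.16 and IFT80, a protein of the ciliary transport train, by −0.41 ± 0.14. IFT80 read 8.19 and 8.15 in the uncoded arrays and 8.45 and 8.21 in the coded arrays against 8.93, 8.52 and 8.54 in DMSO, so that 1 coded array sat with the uncoded arrays. The E3 ligase TRIM59 was lower by −0.39 ± 0.12 (unadjusted p = 0.00502). PMS2, a mismatch repair endonuclease subunit, was lower by −0.28 ± 0.13, with 7.34 and 7.43 in the uncoded arrays, 7.68 and 7.45 in the coded arrays and 7.71, 7.78 and 7.80 in DMSO. The others were KLHL14 (−0.44), IVNS1ABP (−0.41), LMCD1 (−0.40), TCP11L2 (−0.32), HBP1, a repressor of cell cycle genes (−0.32), TMCC3 (−0.30) and OTOF (−0.28).

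**Figure D5:**
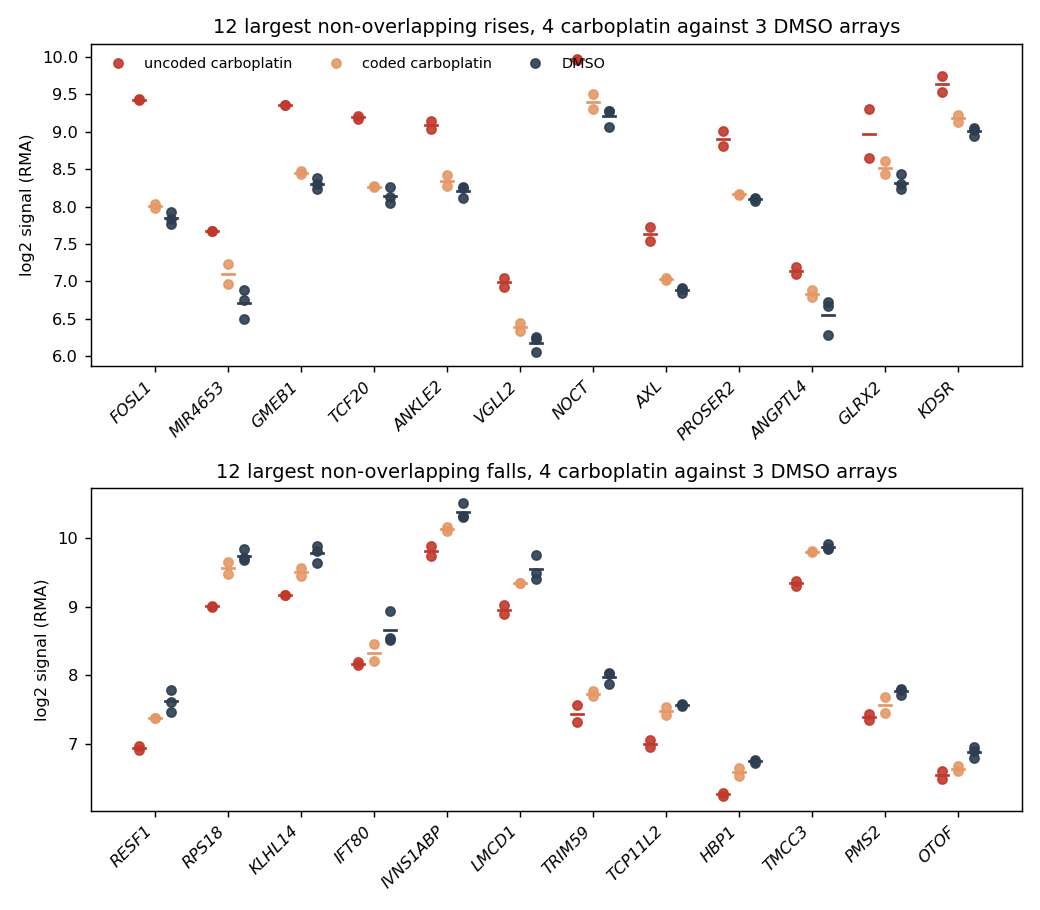
Log2 signal (y axis) of the 12 genes with the largest rise (upper panel) and fall (lower panel) among those whose 4 carboplatin arrays did not overlap the 3 DMSO arrays. Each point is 1 array and each bar a group mean. In GMEB1 the coded values of 8.47 and 8.44 lie next to the highest DMSO value of 8.38.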

How the data were processed

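OVCAR-3 RNA was hybridised to Affymetrix Human Gene 2.0 ST arrays. Polysome RNA was pooled by the authors from the dense gradient fractions. The deposited values are log2 signals, which the authors background-corrected, normalized and summarized by RMA in Affymetrix Expression Console 1.4.1. Deposited were 53617 probesets on 24 arrays with 0 missing values, and array medians ran from 4.97 to 5.13. Precision is limited by the number of arrays.

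Of the probesets, 16098 had a single gene symbol in the platform annotation, updated through RefSeq, and 37519 had none. The probeset with the highest mean was kept for each of 14884 genes, and the 7442 with a mean over all arrays of at least the median, 6.54, were tested.

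limma 3.58.1 in R 4.3.3 was fitted to the 13 polysome arrays without a label conflict, over all 4 treatments, with Benjamini-Hochberg adjustment over all tested genes and a threshold of 0.05. The uncoded and coded arrays entered as separate groups in a second fit of these arrays. Comparisons of either group with DMSO, in polysome or total RNA, were not in the plan. Polysome and total RNA changes were compared in 1 fit of 20 arrays, without pairing by lysate. Scripts were tested on simulated data. Errors after ± are standard errors of the fit.

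Each array was matched to the columns of the study's datasets within a tolerance of 1e-04. For 4 arrays the column was of another condition, and these were left out. Named genes were the 12 largest non-overlapping rises and falls at an unadjusted p under 0.05, up to 3 of each list by p, and a set of repair, apoptosis and platinum genes. The genes of the uncoded comparison were chosen later. In all 31 lists were written, of which 27 had at least 3 tested members, and 26 of these are described. Results on 1 further list and 1 of its members are not reported here. The members and lists were chosen with earlier results of these data known. Alternatives covered the filter, probesets, scaling, arrays fitted, array weights, the replicate number as a block and each array left out.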

Additional observations from a re-analysis of the deposited data

Results flagged for a closer look

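The difference between the carboplatin arrays with and without a code in the title was tested directly and was called in 213 genes. On the log2 scale, uncoded minus coded was 2.57 for DKK1, 1.78 for PTGS2, 1.72 for CXCL8, −1.85 for STC1 and −1.63 for HSPA1B, with adjusted p in limma of 0.000158, 0.000212, 0.0071, 0.00221 and 0.00699. What the codes stand for was not given, and any batch that goes with them cannot be told apart from the code.

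The 4 arrays whose values equal a column of another condition entered none of the comparisons, apart from 1 alternative that added carboplatin polysome replicate 1, and DKK1 in each lay above its highest value of 7.63 in the 5 DMSO arrays of both fractions. The DKK1 signal was 9.92 in the array titled combination total replicate 1 and 9.83 in the array titled combination total replicate 2, 8.13 in the array titled carboplatin polysome replicate 1 and 7.64 in the array titled carboplatin total replicate 1. Of the 12 genes with the largest rise in the uncoded arrays, 12 lay above all 5 DMSO arrays in each of the 2 arrays titled combination total, and 5 did in each of the other 2. The study's datasets hold the 2 arrays titled combination total in columns named for carboplatin alone. In all 527 probesets compared, replicate 1 equalled a polysome column and replicate 2 a total RNA column. Coded polysome replicate 3 and the coded total RNA array equalled another pair of columns named for carboplatin alone.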

How the results depend on the processing

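No gene was called with all 4 carboplatin arrays under any alternative except array weights, with 658 genes, and the uncoded arrays alone in that fit, with 234. The array weights gave DMSO replicate 3 a weight of 267 and the estimate did not converge. Unadjusted p under 0.05 was reached by 479 genes with no filter, 78 with the carboplatin and DMSO arrays fitted alone, 2065 with array weights, 1345 with the uncoded and 5 with the coded arrays alone. With a log2 change of 0.6 added, these counts were 42, 9, 67, 443 and 0. With each array left out the 4-array counts ran from 0 to 0 (adjusted), 29 to 556 (unadjusted) and 0 to 104 (with the size). They were 29 without uncoded replicate 2 and 33 without replicate 3, 493 without coded replicate 2 and 474 without coded replicate 3, 556 without DMSO replicate 1 and 73 without DMSO replicate 3.

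Alternatives of the uncoded and coded comparisons were chosen after seeing the data. The uncoded calls numbered 161 in a fit of the carboplatin and DMSO arrays, 3489 with array weights, and 55 to 591 with an array left out. Uncoded against coded arrays gave 90, 2272 and, with the replicate block, 340 calls, and 33 to 48 with an array left out. The coded arrays gave 208 calls with array weights and otherwise 0, and 175 unadjusted without the filter, 18 after quantile normalization, 1885 with array weights, 51 with the replicate block and 8 to 641 with an array left out. Carboplatin added to INK128 gave 579 unadjusted without the filter and 28 to 1000 with an array left out (1000 without combination replicate 1), and the difference between the carboplatin effects 384 without the filter, 300 with the replicate block and 39 to 563. Polysome minus total RNA change gave 373 without the filter and 30 to 188, and with the uncoded arrays 725 and 139 to 488. Adjusted counts of these 3 stayed at 0.

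Of the uncoded calls 74.0% were rises, against 65.7% (237 and 124) after quantile normalization and 64.3% (229 and 127) after median centring. Of the unadjusted 4-array genes 74.3% were higher, against 59.9% and 62.8%. The 12 largest non-overlapping rises and 12 falls of the 4-array comparison kept their direction under each alternative run on single genes. Reversals were not counted for the 15 tested genes of the repair, apoptosis and platinum set. Not every same-numbered pair deviated together, so the numbers were not taken to pair samples: correlations ran from −0.70 to 0.35 over 4 carboplatin and DMSO pairs, and 13 of 21 pairs over all groups were above 0.1, and the replicate block gave 210 unadjusted 4-array genes and 300 uncoded calls. The cause of these shifts was not tested.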
